A study of Mus musculus with 6 samples.

Results

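The 10 genes described here belong to the G1 and S phase machinery and were measured on arrays of a mouse ovarian surface epithelial line and of its transformed derivative. They were the cyclins *Ccnd1*, *Ccnd2*, *Ccnd3*, *Ccne1*, *Ccne2* and *Ccna2*, the kinases *Cdk2*, *Cdk4* and *Cdk6* that these cyclins bind, and the transcription factor *E2f1*. The genes were chosen by symbol, all 10 were found among the 20405 genes of the deposited table, and each was read by 1 probe set, a group of short probes along the transcript. M0505 cells are an early passage line of ovarian surface epithelium from FVB/N mice, and STOSE cells are the line that arose from M0505 by spontaneous transformation during long-term passage and not by an agent or an engineered allele. Both were grown in the same murine ovarian surface epithelial medium with fetal calf serum and EGF. Total RNA was read on Affymetrix Mouse Gene 1.0 ST chips, 3 for M0505 and 3 for STOSE, called biological replicates in the sample labels. Each group is 1 line, both lines have abnormal karyotypes by the study's methods, and the p-values measure the spread between cultures of a line and not between independent transformations. Values are robust multi-array average (RMA) values on a log2 scale, so a difference of 1 is a 2-fold change. Levels of different genes are not compared, because each probe set has its own brightness.

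D-type cyclins are made when growth factors drive a resting cell into G1, and with *Cdk4* or *Cdk6* they phosphorylate the retinoblastoma protein. This frees E2F factors, which switch on the E-type cyclins, *Ccna2* and the enzymes of DNA synthesis. Cyclin E and later cyclin A then activate *Cdk2* to start and carry through S phase. Ovarian surface epithelium is a single cell layer that divides little except when it covers the wound left by ovulation.

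The cyclins moved in opposite directions. *Ccnd1* was 6.19-fold higher in STOSE cells, while its close relatives *Ccnd2* and *Ccnd3* were 1.36-fold and 1.498-fold lower. *Ccne2* and *Ccna2* were 1.97-fold and 2.02-fold higher. *Ccne1* was 1.21-fold higher, less than *Cdk6*, which at 1.25-fold had the largest difference of the 3 kinases. A gene was called when limma's test with Benjamini-Hochberg adjustment over all 20405 genes gave an adjusted p under 0.05 and the change was at least 2-fold. By this rule 2 of the 10 genes were called, *Ccnd1* and *Ccna2*, both higher, where 12.5% of all genes were called, 4.90% higher and 7.59% lower. At the adjusted p alone 8 genes passed, 5 higher and 3 lower, where 56.5% of all genes passed, 31.6% higher and 24.8% lower. The 3 STOSE arrays did not overlap the 3 M0505 arrays for 7 genes, which is close to the 64.6% of all genes for which the lines were apart (37.6% with STOSE higher and 27.0% lower). The median difference, STOSE minus M0505, was 0.17 on the log2 scale over the 10 genes and 0.08 over all genes.

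All 10 genes lay above 4.74 on all 6 arrays, the level under which 95% of the values of 1134 olfactory receptor probe sets fell, which served as a measure of background. Arrays of the same line correlated across genes with Pearson's r of 0.997 to 0.999 and arrays of different lines with 0.943 to 0.950. In bulk RNA, fewer cells that express a gene and less RNA per cell cannot be told apart, and this includes a different share of cells in each phase of the cycle. When each array was instead centred on the median of its genes, every difference rose by 0.20, and the share of genes past the adjusted p that were higher in STOSE went from 56.0% to 77.0%. The array medians over genes were 6.46 to 6.49 in M0505 and 6.25 to 6.29 in STOSE, whereas over all 28944 probe sets, with those that carry no symbol, they were 5.66 to 5.68 and 5.64 to 5.67. None of the 10 genes changed sign under this centring, but 3 small differences crossed the adjusted p, as given with their genes, and *Ccne2* reached 2-fold and was called, at 1.18.

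**Figure D1:**
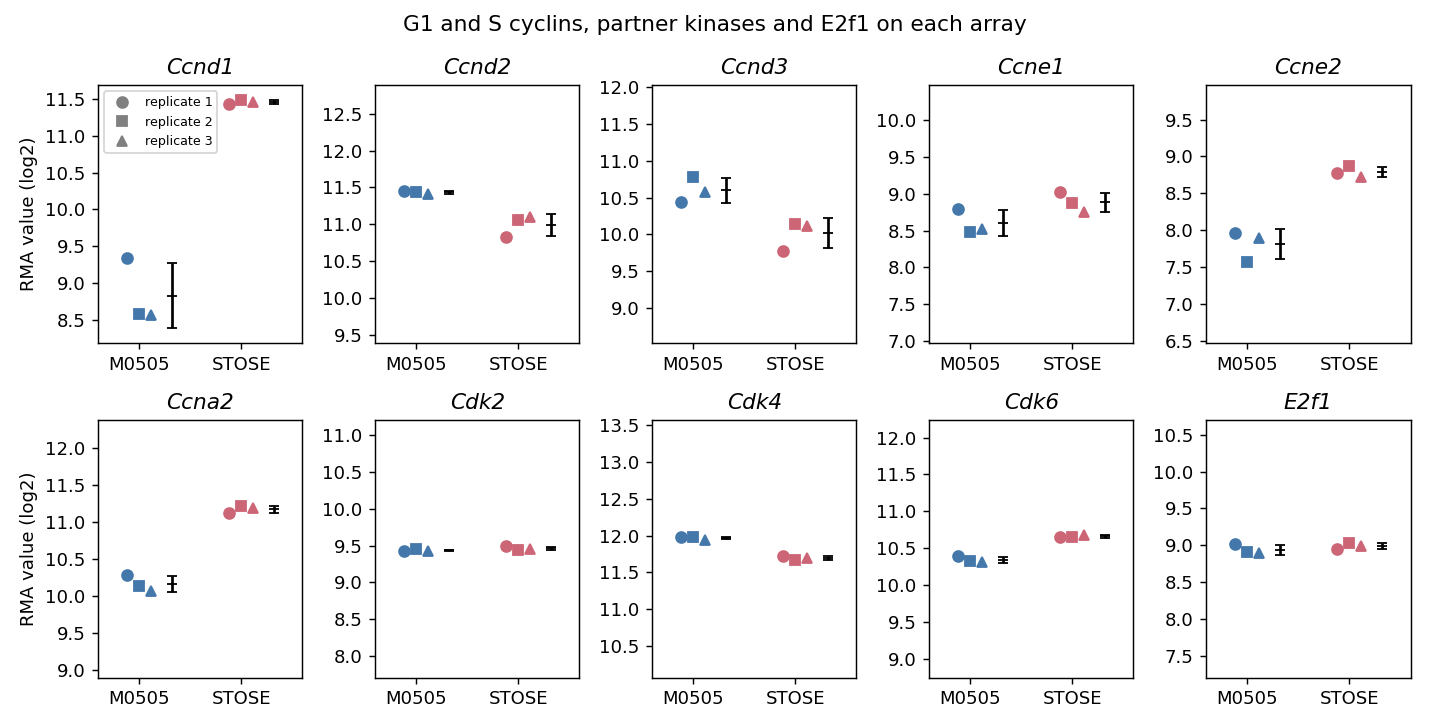
RMA value (log2, vertical axis) of each of the 10 genes on the 3 M0505 arrays (blue) and the 3 STOSE arrays (red), with the mean and SD of each line as a bar beside the points and every panel spanning the same number of log2 units. *Ccnd1* stands near 11.46 in STOSE and between 8.57 and 9.34 in M0505, while the points of *Cdk2* and *E2f1* lie at the same height in both lines.

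*Ccnd1*, cyclin D1, read 9.34, 8.58 and 8.57 on M0505 arrays 1, 2 and 3 and 11.43, 11.49 and 11.46 on STOSE arrays 1, 2 and 3. Every STOSE array was far above every M0505 array, the STOSE arrays were close to each other, and M0505 replicate 1 stood above the other M0505 arrays. The mean went from 8.83 ± 0.44 (SD, n = 3) to 11.46 ± 0.03, a difference of 2.63 with a standard error of 0.19 and a 95% interval of 2.20 to 3.06 (limma adjusted p = 6.17e-06). Dropping any 1 array gave differences that ran from 2.50 to 2.88, the highest being without M0505 replicate 1, and the gene was called in all 6 such fits. *Ccnd1* was also the only one of the 10 to pass limma's treat test of a change beyond 2-fold, with an adjusted p of 0.00029.

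*Ccnd2*, cyclin D2, read 11.45, 11.44 and 11.41 in M0505 and 10.83, 11.06 and 11.10 in STOSE cells. The M0505 arrays agree to within a few hundredths and all lie above the STOSE arrays, of which replicate 1 is the lowest. The difference was −0.44 with a standard error of 0.08 and a 95% interval of −0.62 to −0.25 (limma adjusted p = 0.0017). *Ccnd3*, cyclin D3, read 10.44, 10.78 and 10.58 in M0505 and 9.78, 10.15 and 10.12 in STOSE cells. Its arrays did not overlap between the lines either, and STOSE replicate 1 was again the lowest. The difference was −0.58 with a standard error of 0.12 and a 95% interval of −0.86 to −0.31 (limma adjusted p = 0.00325). When any 1 array was dropped both falls still passed, at −0.49 to −0.35 for *Ccnd2* and −0.66 to −0.47 for *Ccnd3*, and neither reached 2-fold.

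The unequal change of the D cyclins was read directly as the difference between 2 genes within an array. Adding 1 amount to every value of an array leaves this difference untouched. *Ccnd1* minus *Ccnd2* was −2.11, −2.86 and −2.84 on the M0505 arrays and 0.60, 0.43 and 0.36 on the STOSE arrays. All M0505 values are below 0 and all STOSE values above it, and the mean moved by 3.07. *Ccnd1* minus *Ccnd3* moved by 3.21, from −1.77 ± 0.58 (SD, n = 3) to 1.44 ± 0.18. The sign within a line depends on the brightness of the probe sets and has no meaning of its own, so the data show a change in proportion between the D cyclins and not which was the more abundant. The two-sided exact permutation p was 0.1 for each of the 5 pairs compared, which is the smallest that 3 arrays against 3 can give, and stayed at 0.1 after adjustment over the 5 pairs.

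*Ccne1*, cyclin E1, read 8.80, 8.48 and 8.52 in M0505 and 9.02, 8.87 and 8.75 in STOSE cells. The lines overlap, since M0505 replicate 1 lies above STOSE replicate 3. The difference of 0.28 (standard error 0.10, 95% interval 0.04 to 0.52) was just past the threshold, with a limma adjusted p of 0.0467. It passed in 2 of the 6 fits with 1 array left out and reached an adjusted p of 0.153 without M0505 replicate 2, 0.137 without M0505 replicate 3, 0.13 without STOSE replicate 1 and 0.0905 without STOSE replicate 2. The methods' t-test after Benjamini-Hochberg adjustment gave 0.142. Other settings gave a lower limma adjusted p, at 0.00933 without M0505 replicate 1 and 0.0238 after a further quantile normalization. With arrays centred on the median of their genes it was 0.00239, and with the replicate number as a block 0.00921.

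*Ccne2*, cyclin E2, read 7.95, 7.57 and 7.90 in M0505 and 8.78, 8.87 and 8.72 in STOSE cells. All 3 STOSE arrays were higher than all 3 M0505 arrays, and the gap was wider than the spread in either line. The difference was 0.98 with a standard error of 0.10 and a 95% interval of 0.74 to 1.22 (limma adjusted p = 6.23e-05), so that *Ccne2* missed the call by its fold alone. The estimate crossed 2-fold in 3 of the 6 fits with 1 array left out, which gave 0.86 to 1.05, and was called after a further quantile normalization (1.05) and with arrays centred on the median of their genes (1.18). Within an array *Ccne1* minus *Ccne2* was 0.84, 0.91 and 0.63 in M0505 and 0.24, 0.00 and 0.03 in STOSE, without overlap, and the mean moved by −0.70.

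*Ccna2*, cyclin A2, which is needed in S phase and again at the entry into mitosis, read 10.28, 10.13 and 10.07 in M0505 and 11.12, 11.21 and 11.19 in STOSE cells. The arrays of each line lay close together and the lines were about 1 log2 unit apart. The difference was 1.01 with a standard error of 0.07 and a 95% interval of 0.85 to 1.18 (limma adjusted p = 5.43e-06). The rise itself was well past the spread between arrays, but the interval spans 2-fold on both sides, and the 2-fold call was lost without M0505 replicate 3 (0.97) and without STOSE replicate 2 (0.997).

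**Figure D2:**
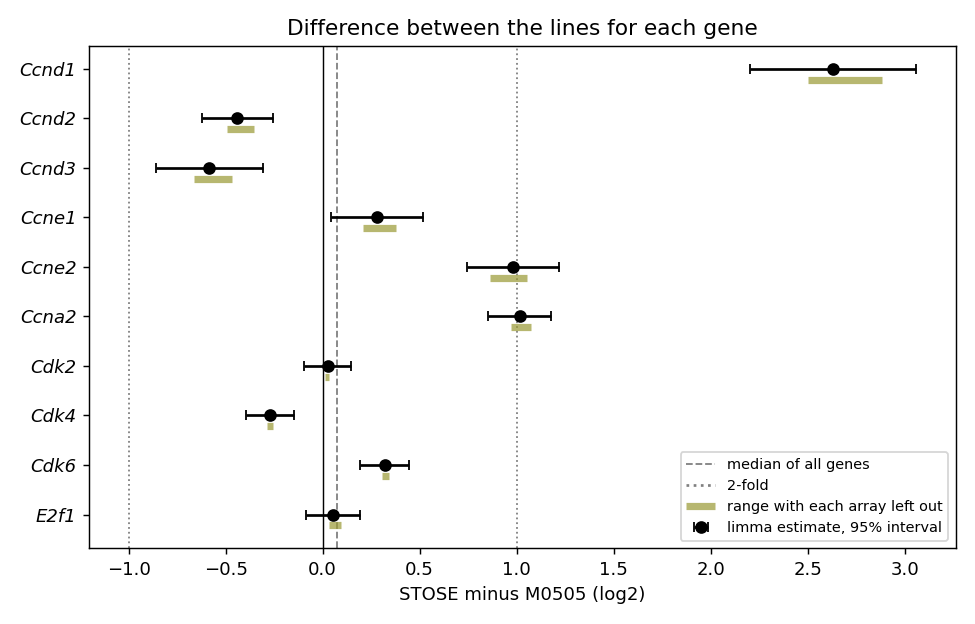
Difference STOSE minus M0505 (log2, horizontal axis) for each of the 10 genes, with the limma estimate and its 95% interval as a point and bar, the range over the 6 fits with 1 array left out as a thick band, the median of all genes as a dashed line and 2-fold as dotted lines. *Ccnd1* lies at 2.63, *Ccne2* and *Ccna2* lie on the 2-fold line at 0.98 and 1.01, and the intervals of *Cdk2* and *E2f1* cross 0.

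The kinases did not move together. *Cdk2*, the partner of cyclins E and A, read 9.43, 9.45 and 9.43 in M0505 and 9.49, 9.44 and 9.45 in STOSE cells. The lines overlapped, and the difference of 0.03 (standard error 0.05) had a 95% interval of −0.10 to 0.15 with a limma adjusted p of 0.703. *Cdk4*, a partner of the D cyclins, read 11.98, 11.98 and 11.94 in M0505 and 11.73, 11.66 and 11.70 in STOSE cells. All STOSE arrays were lower, with a mean difference of −0.27 (standard error 0.05, 95% interval −0.39 to −0.15, limma adjusted p = 0.00285), and with each array centred on the median of its genes the difference was −0.07 and did not pass (adjusted p = 0.251). *Cdk6*, the other partner of the D cyclins, read 10.39, 10.32 and 10.31 in M0505 and 10.65, 10.65 and 10.68 in STOSE cells. Here all STOSE arrays were higher, by 0.32 (standard error 0.06, 95% interval 0.19 to 0.45, limma adjusted p = 0.00121), and the fits with 1 array left out gave 0.31 to 0.34. *Cdk2* passed the adjusted p when the arrays were centred on the median of their genes, at 0.23 (adjusted p = 0.00455).

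Within an array *Cdk4* minus *Cdk6* was 1.62 ± 0.03 (SD, n = 3) in M0505 and 1.03 ± 0.04 in STOSE, a move of −0.59. *Cdk2* minus *Cdk4* went from −2.53 ± 0.02 to −2.23 ± 0.02, a move of 0.30, and was the pair with the smallest spread between arrays. A further quantile normalization, which is not a single shift of an array, made this move 0.36. For both pairs the lines did not overlap, and their exact permutation p was the 0.1 given above.

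**Figure D3:**
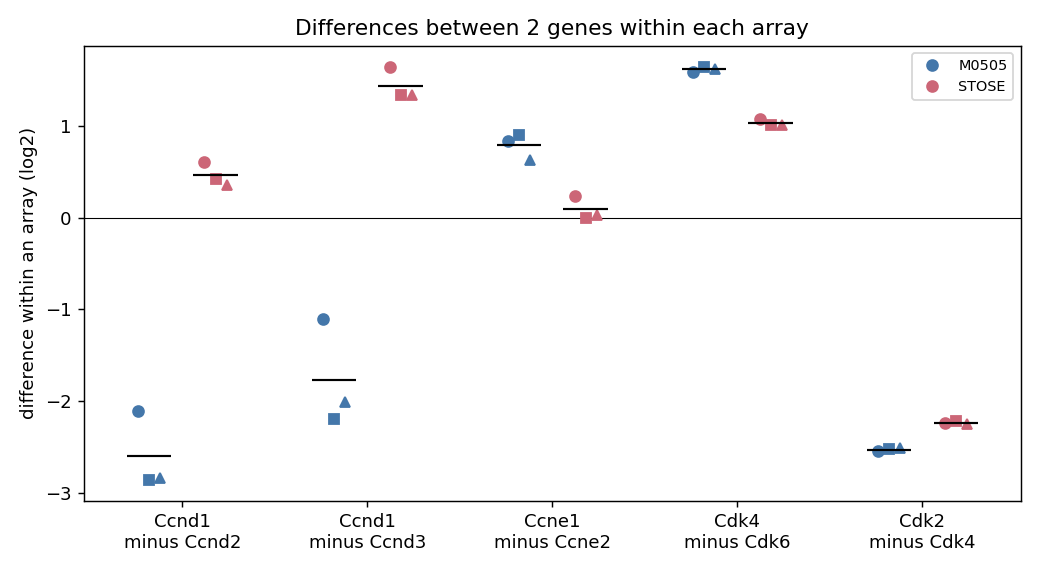
Difference between 2 genes within each array (log2, vertical axis) for the 5 pairs compared, with the M0505 arrays in blue, the STOSE arrays in red, a circle, square and triangle for replicates 1, 2 and 3, and the mean of each line as a bar. The lines are apart in every pair, by 3.07 and 3.21 for the pairs with *Ccnd1* and by 0.30 for *Cdk2* minus *Cdk4*.

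The promoters of the 3 kinases are shown because these genes of 1 family did not pass, fell and rose in the same cells. RefSeq windows in assembly GRCm38.p6 run from 250 bases before to 50 bases after an annotated start, and 6 of the 10 genes had one, *Ccnd3* with 2. No window was at hand for *Ccnd1*, *Ccnd2*, *Ccne2* and *Ccna2*. Both strands were searched for an E2F site (TTTCCCGC or TTTGGCGC), an E-box (CACGTG), a cyclic AMP element (TGACGTCA) and a CHR element (TTTGAA), and matches are in capitals. The windows are *Cdk2* at chr10:128705002-128705301 on the minus strand, *Cdk4* at chr10:127063285-127063584 on the plus strand and *Cdk6* at chr5:3343643-3343942 on the plus strand.
Cdk2: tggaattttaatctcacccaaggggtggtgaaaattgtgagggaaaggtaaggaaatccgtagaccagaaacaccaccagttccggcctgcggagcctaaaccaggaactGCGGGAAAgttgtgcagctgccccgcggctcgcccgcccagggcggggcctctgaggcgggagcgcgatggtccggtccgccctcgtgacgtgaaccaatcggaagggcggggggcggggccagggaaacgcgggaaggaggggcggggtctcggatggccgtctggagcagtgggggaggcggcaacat
Cdk4: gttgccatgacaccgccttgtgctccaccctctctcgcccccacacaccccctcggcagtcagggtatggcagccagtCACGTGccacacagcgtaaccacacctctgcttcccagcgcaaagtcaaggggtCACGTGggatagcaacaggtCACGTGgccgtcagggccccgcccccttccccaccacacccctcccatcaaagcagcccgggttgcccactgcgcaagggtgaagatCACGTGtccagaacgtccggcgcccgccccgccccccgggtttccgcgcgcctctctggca
Cdk6: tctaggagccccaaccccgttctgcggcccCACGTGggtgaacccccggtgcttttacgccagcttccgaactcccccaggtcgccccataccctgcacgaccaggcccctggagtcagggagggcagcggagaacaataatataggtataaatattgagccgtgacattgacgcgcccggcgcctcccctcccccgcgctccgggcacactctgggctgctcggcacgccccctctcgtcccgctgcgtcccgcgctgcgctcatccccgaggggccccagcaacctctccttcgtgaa
The *Cdk2* window held 1 E2F match, read on the opposite strand 140 bases before the start, and such a match was found in 1.56% of the 32851 windows of all genes. The *Cdk4* window held 4 E-boxes, at 172, 118, 98 and 11 bases before the start, where 7.15% of all windows held at least 1 and 8 windows (0.0244%) held 4 or more. The *Cdk6* window held 1 E-box, 220 bases before the start. No window of the 6 genes held the cyclic AMP element (1.79% of all windows) or the CHR element (17.9%), and those of *Ccnd3*, *Ccne1* and *E2f1* held none of the searched letters. A match of letters describes the window and is not evidence of binding. Each window surrounds an annotated start that was not checked to be the main start of its gene. The lack of a match, as in *E2f1*, therefore does not describe other promoters of the gene.

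*E2f1*, a transcription factor of the E2F family, read 9.02, 8.90 and 8.90 in M0505 and 8.95, 9.04 and 8.996 in STOSE cells. The lines overlap, and the difference of 0.05 (standard error 0.06) had a 95% interval of −0.09 to 0.20 with a limma adjusted p of 0.481. With the arrays centred on the median of their genes it was 0.25 and passed (adjusted p = 0.00574), while relative to the median of all genes in the values as deposited it was −0.02.

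Around these 10 genes, 85 other genes of the cell cycle machinery in 7 lists were read in the same fit, of which 23 were called. Over all genes 12.5% were called and 56.5% passed the adjusted p, and some of the counts that follow are near those shares, such as 2 called and 13 past the adjusted p of 21 other cyclins and CDKs. S phase genes known as E2F targets, which build the replication origin, the helicase and the nucleotide supply, rose with few exceptions. Of 20 such genes 19 passed the adjusted p as higher and 10 were called higher, with a median of 1.06 against 0.08 over all genes. *Orc1l* (now *Orc1*), a subunit of the origin recognition complex, was higher by 2.18, *Mybl2*, a transcription factor of dividing cells, by 2.00, the licensing factor *Cdt1* by 1.49 and the helicase subunit *Mcm5* by 1.42. Among those not called, *Pcna*, the sliding clamp, was higher by 0.35 and the helicase subunit *Mcm7* by 0.78. *Rrm1*, a subunit of ribonucleotide reductase, was the exception at −0.07, did not pass (limma adjusted p = 0.27) and turned to 0.13 when arrays were centred on the median of their genes.

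The RB and E2F family was split. Of its 12 genes 7 passed as higher and 3 as lower, with 3 and 1 called, and the median was 0.59. Over all genes 31.6% passed as higher and 24.8% as lower, and 4.90% and 7.59% were called. *E2f7* and *E2f8*, repressors within the family, were higher by 2.70 (standard error 0.06) and 1.65 (0.11), and the activator *E2f2* by 1.06 (0.06), where *E2f1* stood at 0.05 and did not pass. *Rbl2*, the RB relative p130 of resting cells, differed by −1.10, and came under 2-fold with a further quantile normalization (−0.98) or centred arrays (−0.90). *E2f4*, a repressive E2F that binds p130, was higher by 0.84, the E2F partner *Tfdp2* differed by −0.51, and *Tfdp1* at 0.10 did not pass.

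Among the CDK inhibitors 2 neighbours on chromosome 4 had the large differences. Of 7 genes 2 were called, both lower, 1 passed as higher and 4 did not pass, and the median was 0.00. The shares over all genes were 7.59% called lower and 31.6% past the adjusted p as higher. *Cdkn2b*, the inhibitor p15 of Cdk4 and Cdk6, differed by −3.75 and *Cdkn2a*, which encodes p16 and Arf, by −2.54. *Cdkn2c*, which encodes p18 of the same class, was higher by 0.63. *Cdkn1b*, which encodes p27, stood at 0.04 and did not pass, and *Cdkn1a*, which encodes p21, stood at −0.06, did not pass and turned to 0.14 with centred arrays.

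Genes that switch CDKs on or off at their phosphates and the Cks subunits leaned upward. Of 10, 8 passed as higher and 1 as lower, 3 were called, all higher, and the median was 0.59. Of all genes 31.6% passed as higher, 24.8% as lower, and 4.90% were called higher. The phosphatases *Cdc25b* and *Cdc25c*, which activate Cdk1, were higher by 1.89 and 1.36, *Cdc25a*, which also acts on Cdk2, by 0.67, and the Cdk subunit *Cks1b* by 1.22, with *Cks2* at 0.28 and the inhibitory kinase *Wee1* at 0.47, both past the adjusted p. Of 9 subunits of ligases that tag cyclins and their inhibitors with ubiquitin, 6 passed as higher and 1 as lower, with a median of 0.27. The same shares over all genes apply to these counts. *Skp2*, the receptor that hands p27 to its ligase together with Cks1, was the 1 called, higher by 1.16 (standard error 0.05), *Cul3* and *Rbx1* were higher by 0.16 and 0.27, and the scaffold *Cul1* at 0.04 did not pass.

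Cyclins and kinases outside G1 and S phase were mixed. For comparison, 4.90% of all genes were called higher and 7.59% lower, with 31.6% and 24.8% past the adjusted p. Of 6 mitotic and germline genes 3 passed, all higher, with a median of 0.21: *Ccnf*, a cyclin that is itself a ubiquitin ligase receptor, was called at 1.52, *Ccnb1* was higher by 0.99 and *Ccnb2* by 0.33, while *Cdk1* stood at 0.05 and did not pass. Of 21 other cyclins and CDKs 6 passed as higher and 7 as lower, with 2 called, both lower, and a median of −0.00. *Ccng2*, a cyclin of arrested cells, differed by −1.70, *Cdk5*, a kinase best known in neurons, by −1.23, *Ccni* by −0.91 and *Cdk16* by −0.62. *Ccng1*, a p53 target, did not pass at −0.10 and turned to 0.10 with centred arrays.

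**Figure D4:**
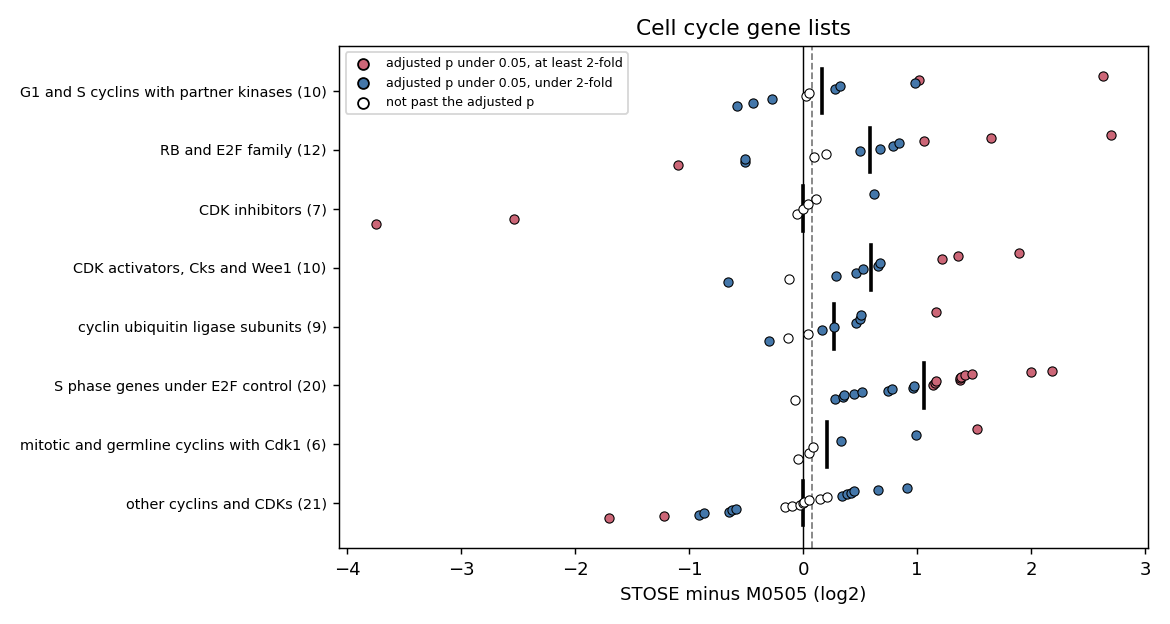
Difference STOSE minus M0505 (log2, horizontal axis) of each gene in 8 lists, the 10 G1 and S genes at the top with the number of genes of each list in brackets, red for genes called, blue for genes past the adjusted p under 2-fold, white for genes that did not pass, a short bar for the median of each list and a dashed line for the median of all genes at 0.08. S phase genes lie to the right of 0 with 1 exception, while the D cyclins and the RB and E2F family spread to both sides.

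Both lines have abnormal karyotypes, so the measured genes next to each of the 10 were read as a description of their surroundings, up to 10 on each side in the order of GRCm38.p6. Around *Ccnd1*, near the end of chromosome 7, 14 neighbours had a median of 0.08, the same as all genes. The nearest on either side were *Oraov1*, at −0.64 and past the adjusted p (limma, 6.38e-05), and *Tpcn2*, at −0.10. Of the 14, *Mrgprf* was called higher by 2.25, the third gene from *Ccnd1*, and the chloride channel gene *Ano1* was called lower at −3.48, the fifth on the other side. The other genes of this stretch ran from −0.64 to 0.45. Around *Ccna2* and *Ccne2* the medians were 0.08 and 0.11, with 0 of 20 neighbours called higher in each case and 1 and 2 called lower. Close to *Ccna2*, however, *Exosc9*, the gene next to it, was higher by 0.95 (limma adjusted p = 2.27e-06) and *Acad9*, 4 genes away, by 0.99 (2.08e-06), both just under 2-fold and near the 1.01 of *Ccna2* itself. The genes between *Exosc9* and *Acad9* did not share this size, with *Anxa5* at 0.09 and *Qrfpr* at 0.17. *Bbs7*, next to *Ccna2* on the other side, stood at 0.00 and did not pass. In all, 26 of 186 neighbours were called (14.0%, where 12.5% of all genes were), and the medians ran from −0.32 around *Cdk2* to 0.23 around *Ccnd2*. Of the 20 genes around *Cdk4*, 5 were called, all lower, and of those around *Ccnd2*, 4 were called higher and 2 lower.

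**Figure D5:**
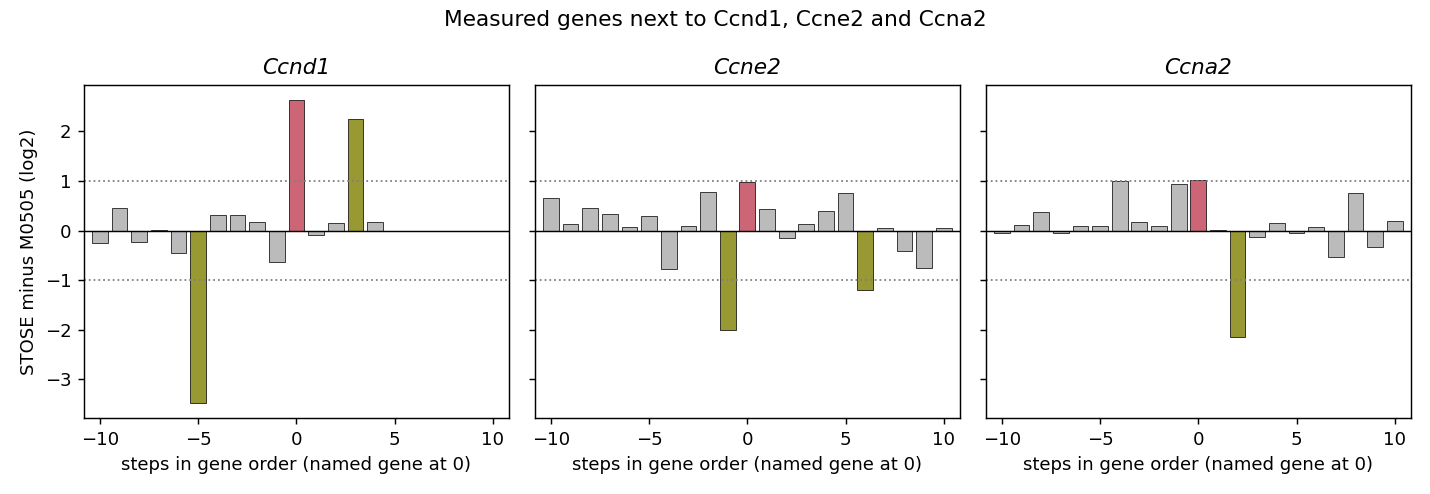
Difference STOSE minus M0505 (log2, vertical axis) of the measured genes next to *Ccnd1*, *Ccne2* and *Ccna2*, by steps in gene order along the chromosome with the named gene (red) at 0, called neighbours in olive, others in gray and 2-fold as dotted lines. The tall red bar of *Ccnd1* at 2.63 stands among bars near 0, with *Ano1* at −3.48 and *Mrgprf* at 2.25, and the gene order on the right of *Ccnd1* ends after 4 genes.

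The genes whose values were most like those of *Ccnd1* over the 6 arrays were *Dlgap5*, *Nop56*, *Mki67*, *Cox4nb* and *Tacc3*, with Pearson's r from 0.99923 to 0.99987, given as a description since these arrays fall into 2 lines. They differed between the lines by 0.82, 0.76, 1.09, 0.68 and 0.74. *Mki67* encodes the proliferation marker Ki-67, and *Dlgap5* and *Tacc3* encode proteins of the mitotic spindle. Being chosen for their likeness to *Ccnd1*, they share its higher value on M0505 replicate 1 by construction. M0505 replicate 1 was the highest of its line in 8 of the 10 G1 and S genes, *Ccnd1* included, and in 16 of the 20 S phase genes, where it was highest in 36.3% of all genes. *Ccnd2* and *Cdk4*, both lower in STOSE, were nearly equal on M0505 replicates 1 and 2, at 11.4495 and 11.4428 and at 11.9754 and 11.975. The mean of the S phase genes was 8.95, 8.83 and 8.81 on the M0505 arrays and 9.88, 9.89 and 9.83 on the STOSE arrays. The gap between the lines was thus larger than the step from M0505 replicate 1 to the other M0505 arrays. Over the 2548 called genes M0505 replicate 1 lay toward STOSE by a median of 0.09, and its part in the spread of *Ccnd1* was not tested.

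The labelled tissue was checked against markers. Among all genes 12.5% were called, 4.90% higher and 7.59% lower, and 31.6% passed as higher and 24.8% as lower. All 8 markers of ovarian surface epithelium were above background in at least 1 line and all fell in STOSE cells, 4 of them called, from *Upk3b* at −0.34 and *Wt1* at −0.63 to *Krt8* at −4.55 and *Krt19* at −5.56, and their summed linear level was 20927 to 22004 in M0505 and 10029 to 10961 in STOSE. Such a sum is weighted to the brightest probe sets. Of 5 leukocyte genes 1 was called, *Cd68* at −2.82, and *Cd3e* passed as higher at 0.22. The sum was 812 to 1066 in M0505, where it rests mostly on *Cd68*, and 205 to 248 in STOSE. The defining markers *Ptprc* and *Itgam* were under the background level in the mean of both lines. Of 4 endothelial genes 1 was called, *Kdr* at −5.17, with sums of 819 to 897 and 101 to 102 that rest mostly on this gene in M0505, while *Pecam1* passed as lower at −0.36 and *Cdh5* as higher at 0.20. Of 4 granulosa cell genes 1 was called, *Inha* at −3.93, with sums of 861 to 980 and 161 to 184 that rest mostly on this gene in M0505. *Fshr* and *Cyp19a1* were under background in both lines. *Foxl2* was above background on all 6 arrays and passed as lower at −0.37 (limma adjusted p = 0.00243). Of 4 stromal genes 0 were called. There 2 passed as higher, *Col1a1* at 0.95 and *Pdgfra* at 0.84, and 1 as lower, *Dcn* at −0.45. The sums did not overlap, at 5186 to 5620 in M0505 and 4772 to 5161 in STOSE, but rest mostly on *Dcn*. The part of all these markers in the differences of the cyclins was not tested.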

How the data were processed

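Total RNA of M0505 and STOSE cells (3 arrays each) was read on Affymetrix Mouse Gene 1.0 ST chips. The authors deposited RMA log2 values (background corrected, quantile normalized and summarized per probe set), and the submitters' processing notes name Affymetrix Expression Console. The RMA version, the annotation release and the genome build are not given in the sources used here. The same table holds the authors' line means, which equalled the recomputed means within 3.33e-09, and their fold changes, which were not used. All array columns matched a sample, with 0 left over.

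Of 28944 probe sets 23530 carried a gene symbol. Each of 20405 genes was represented by its brightest probe set, by the mean of all 6 arrays. Lines were compared by limma 3.58.1 (lmFit, then eBayes; R 4.3.3) without covariates, and p-values were adjusted by Benjamini-Hochberg over all genes (calls at an adjusted p under 0.05 and at least 2-fold). The code was tested on simulated data. Arrays have no read depth, and their number limits the precision.

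The genes and lists were chosen with earlier results of these data known. Named were all 10 genes, up to 4 called genes with the largest change and up to 3 uncalled genes with the highest mean in each list, and the 5 genes most like *Ccnd1*. Neighbouring genes and cell type markers were named after their values were seen. Of the list genes, 2 were matched by an older symbol. The order of genes and the promoter sequences came from RefSeq, assembly GRCm38.p6, which placed 19899 genes. The 15 alternatives tried included other normalizations, filters, probe set rules, thresholds, tests, the replicate number as a block and leaving out each array.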

Additional observations from a re-analysis of the deposited data

How the results depend on the processing

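The differences of all 10 genes kept their direction in every alternative run. The 2-fold threshold mattered most. The count of all genes called, 2548, became 11520 with no fold threshold, 5116 at 1.5-fold, 695 at 4-fold and 1499 with limma's treat test, and the methods' t-test without a fold gave 11595 unadjusted and 10122 after Benjamini-Hochberg adjustment. In the same order the genes called among the 10 were 8, 3, 1, 1, 7 and 7 in place of 2, and those among the 85 list genes 64, 42, 5, 15, 69 and 64 in place of 23. Treat left 1 of the 10 past its adjusted p. *Ccna2* at 1.01 was not called by treat or at 4-fold, and ran from 0.97 to 1.07 with each array left out, while the count of called genes among the 10 ran from 1 (without STOSE replicate 2) to 3 (without M0505 replicate 1 or STOSE replicate 3). A further quantile normalization and centring of the arrays each gave 3 as well, with *Ccne2* the gene added. Quantile normalization also moved *Cdk2* minus *Cdk4* from 0.30 to 0.36. Centring each array on the median of its genes turned *Cdkn1a* to 0.14, *Rrm1* to 0.13 and *Ccng1* to 0.10, and changed the split of genes past the adjusted p from 6454 higher and 5066 lower to 12738 and 3804, and that of called genes from 1000 and 1548 to 1466 and 1177. The cause of these changes was not tested beyond the construction of each alternative.

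Replicate numbers are shared by the lines. The deviations of same-numbered arrays correlated at 0.26, 0.04 and 0.25, and those of differently numbered arrays at −0.29 to 0.12. These values do not settle whether same-numbered arrays share an effect. The sample labels state no pairing, and the main fit left the arrays unpaired. With the replicate number as a block 2549 genes were called, 2 of the 10 among them, and no call of the 10 changed. Signal was above background for all 10 genes on all arrays, and 3 arrays in a line limit the precision of each difference. Scanner files were not analysed here, and the background correction was therefore kept as deposited.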
